A study of Homo sapiens with 6 samples.

Results

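The genes described here encode nuclear subunits and COX-named assembly factors of the last 3 enzymes of oxidative phosphorylation: complex III (the cytochrome bc1 complex), cytochrome oxidase (complex IV) and ATP synthase (complex V). They were chosen by symbol, as every listed name that begins with UQCR, with COX and a digit or with ATP5, plus CYC1, leaving out pseudogenes and antisense genes. This gave 49 of the 17787 symbols listed in any library. The name rule also took in a few genes with other roles, and these are described apart. Subunit genes listed under other names fall outside the rule and the sums given below. Symbols are given as listed in the files, which hold older names such as ATP5B for ATP5F1B and ATP5G1 for ATP5MC1.

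Messenger RNA was sequenced from A549, a human lung adenocarcinoma cell line, in 3 libraries labelled siNC (their genotype label reads wild type) and 3 labelled siFOXD3. An siRNA is a short double-stranded RNA that lowers the level of a chosen transcript, here that of FOXD3, a forkhead transcription factor. The labels give no dose, no time after transfection and no separate cultures, so p-values measure the spread between these libraries, which may be technical. All 6 libraries come from this single line and carry no other stated treatment. In bulk RNA, a change in the make-up of the cells and a change in RNA per cell cannot be told apart.

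Complex III passes electrons from ubiquinol to cytochrome c and moves protons across the inner mitochondrial membrane as it does so. Cytochrome oxidase passes the electrons on to oxygen, and ATP synthase uses the proton gradient to make ATP. The core catalytic subunits of cytochrome oxidase, cytochrome b of complex III and the a subunit of ATP synthase are encoded in mitochondrial DNA, while the genes measured here are nuclear and their proteins are imported. None of the 13 protein-coding genes of mitochondrial DNA was listed in the files, so they were not analysed here. Haem, copper and iron-sulphur centres must be inserted during assembly, which is the work of the assembly factors.

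FOXD3 was low in every library. Its level was 0.152, 0.291 and 0.134 FPKM in siNC and 0, 0.0749 and 0 FPKM in siFOXD3, where FPKM stands for sequenced fragments scaled to the length of the transcript and the size of the library. The groups did not overlap, but all 6 values lay below the 1 FPKM needed for testing. The spacing of low values put the depth at 7740000 to 8870000 fragments per library, so 1 FPKM in a transcript of 1 kilobase stands for about 8 to 9 fragments. The number of symbols at 1 FPKM or more was 12540 to 12680 in siNC and 11947 to 12007 in siFOXD3. The labels' extraction text speaks of retinas, so photoreceptor markers were examined. Of 16, 2 (ABCA4 and ROM1) reached 1 FPKM in any library, and SAG, GNAT1, RCVRN, OPN1SW and OPN1LW were not listed. The sum over the list was 3.75 to 4.07 FPKM in siNC and 5.54 to 7.14 FPKM in siFOXD3. Both ABCA4 (1.62 ± 0.260 to 2.815 ± 0.153 FPKM) and ROM1 (0.937 ± 0.00955 to 1.99 ± 0.350 FPKM) were called higher. ROM1 reached 1 FPKM only in the siFOXD3 libraries. All 10 epithelial and A549 markers were present, led by KRT8, KRT18 and KRT19, with a sum of 6412 to 7449 FPKM in siNC and 9109 to 9127 FPKM in siFOXD3. Leukocyte markers (3 of 8 at 1 FPKM or more, led by CD68, CD14 and LAPTM5) summed to 74.5 to 84.8 FPKM in siNC and 67.5 to 68.5 FPKM in siFOXD3, with PTPRC at 0.227 ± 0.0713 and 0.194 ± 0.0429 FPKM (SD, n = 3). This sum was nearly all CD68 (74.0 ± 4.74 and 66.0 ± 0.820 FPKM). CD14 fell from 2.92 ± 0.613 to 1.25 ± 0.304 FPKM and LAPTM5 from 2.06 ± 0.241 to 0.210 ± 0.0691 FPKM, both called lower. LAPTM5 reached 1 FPKM only in the siNC libraries, so it was tested only through the group where it was high. Fibroblast and muscle markers (3 of 11, led by COL1A1, TNNT2 and DES) summed to 6.27 to 6.98 FPKM and 3.59 to 4.05 FPKM. The part of any of these markers in the results below was not tested.

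Promoter sequences are shown for the genes whose changes stood out or diverged, chosen after their values were seen. They are from RefSeq (GRCh38.p14), 5′ to 3′ on the strand of the gene, and each runs up to the base before the annotated transcription start. Capitals mark the core of the site of the factor NRF1 (CGCATGCG) or, in the last line, a GC box (GGGCGG). COX6B2 fell furthest (chr19:55354720-55354839, minus strand), COX7A2L was the abundant gene that fell furthest (chr2:42361218-42361337, minus strand), and COX7B was the subunit gene that rose furthest (chrX:77899348-77899467, plus strand). ATP5G2 (chr12:53676084-53676203, minus strand) and ATP5I (chr4:674277-674396, minus strand) both hold the NRF1 core and were called in opposite directions. The last line is the stretch of 150 bases between the divergent starts of COX4I1 and EMC8, listed in the files as COX4NB (chr16:85799545-85799694, plus strand).
COX6B2: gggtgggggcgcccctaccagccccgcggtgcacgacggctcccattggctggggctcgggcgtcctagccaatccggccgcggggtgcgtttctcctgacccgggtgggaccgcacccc
COX7A2L: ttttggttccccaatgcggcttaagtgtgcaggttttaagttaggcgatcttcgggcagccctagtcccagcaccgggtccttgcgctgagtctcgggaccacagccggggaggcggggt
COX7B: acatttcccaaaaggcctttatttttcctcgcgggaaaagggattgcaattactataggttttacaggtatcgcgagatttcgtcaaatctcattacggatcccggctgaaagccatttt
ATP5G2: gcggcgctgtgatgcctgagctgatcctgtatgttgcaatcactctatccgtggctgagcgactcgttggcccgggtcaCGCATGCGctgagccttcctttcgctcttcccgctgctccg
ATP5I: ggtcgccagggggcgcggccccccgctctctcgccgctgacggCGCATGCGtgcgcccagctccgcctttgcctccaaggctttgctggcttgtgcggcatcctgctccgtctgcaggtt
COX4I1 and EMC8: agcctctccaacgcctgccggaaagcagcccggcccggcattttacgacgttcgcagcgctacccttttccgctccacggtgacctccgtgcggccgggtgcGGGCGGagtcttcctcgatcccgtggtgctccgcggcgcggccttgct

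Most of these genes changed little, and those that changed went both ways. Of the 49 genes, 46 passed the filter of at least 1 FPKM in at least 3 libraries. With limma on log2(FPKM + 1), 30 of the 46 (65.2%) were called at an adjusted p under 0.05, against 65.9% of all 12555 genes tested. Of these, 19 were higher and 11 lower in siFOXD3, which is 41.3% and 23.9% of the 46, beside 27.2% and 38.7% of all genes tested. The share called was thus at the background. The median log2 fold change was 0.05 for these genes and -0.08 over all genes tested, and 37 of the 46 lay within 0.5 of zero. The median size of the change was 0.24 on the log2 scale, against 0.33 over all genes.

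Because 30 of these genes have a mean of 100 FPKM or more, genes of that level are the closer background. Over 852 such genes, 75.7% were called, 45.8% higher and 29.9% lower. Among the 30 respiratory genes of that level, 17 (56.7%) were called, 12 higher and 5 lower. In 30 of the 46 genes the 3 siFOXD3 values all lay to 1 side of the siNC values, 18 above and 12 below, where this held for 70.7% of all genes tested (29.6% above, 41.1% below). Another scaling moved the split: median-of-ratios scaling gave 23 higher and 6 lower, and quantile normalization gave 16 higher and 15 lower. Quantile normalization raised the median of all genes from -0.08 to 0.03. Relative to all genes, the median of the respiratory genes was 0.13 above as deposited, 0.14 above with median-of-ratios scaling and 0.03 below with quantile normalization (-0.03). Against genes at 100 FPKM or more the order was the other way: the 852 genes of that level had a median of 0.10 (0.19 with median-of-ratios scaling), and the 30 respiratory genes of that level 0.08 (0.17).

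**Figure D1:**
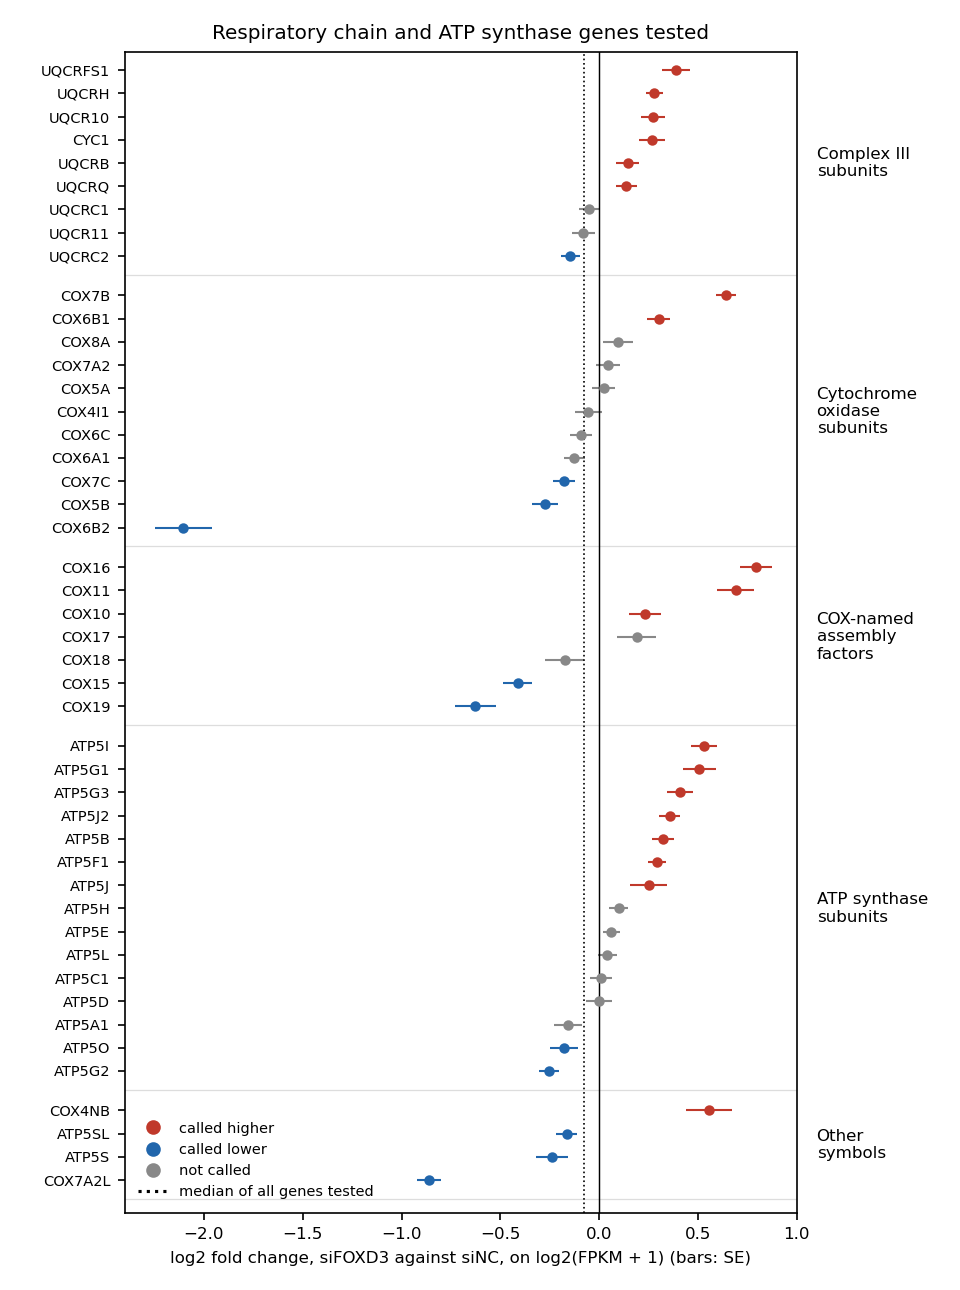
Log2 fold change of siFOXD3 against siNC on log2(FPKM + 1) for the 46 genes tested, 1 row per gene ordered within its role, with bars for the SE of the limma fit, red for genes called higher, blue for lower and grey for not called, and a dotted line at the median of all genes tested. COX6B2 at -2.10 lies apart on the left, COX16 at 0.79 is the furthest to the right, and 37 of 46 genes lie within 0.5 of zero.

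In siNC, replicate 1 was often the highest library. It gave the top siNC value for 36 of the 46 genes (78.3%), against 4354 of all 12555 genes tested (34.7%). This was not particular to these genes. The same library was highest of siNC for most complex I subunit genes and for KRT8, KRT18 and KRT19. The share among genes at 100 FPKM or more was not examined. Without siNC replicate 1, 22 of the 46 genes were called higher and 9 lower. Library preparation or sequencing batches are not given, and the part of this library in the results was not tested beyond that fit and the values given for single genes.

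Subunit genes of complex III changed by small steps. Of 9, 6 (66.7%) were called higher, 1 lower and 2 were not called, beside 27.2% higher over all genes tested and 45.8% over those at 100 FPKM or more, and 4 or 5 were called higher with any 1 library left out. They had a median log2 fold change of 0.15, with all 9 within 0.5. The summed level of the 9 genes was 1873, 1686 and 1748 FPKM in siNC and 2073, 2074 and 2028 FPKM in siFOXD3. All siFOXD3 sums lay above all siNC sums, and the ratio of means was 1.16 ± 0.0644 (SD, n = 3 per group). UQCRH alone held the largest part of the sum, with a mean of 971 of 1769 FPKM in siNC and 1177 of 2058 FPKM in siFOXD3. The count depended on the scaling: quantile normalization gave 4 higher and 3 lower, the latter being UQCRC1, UQCRC2 and UQCR11.

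UQCRFS1 encodes the Rieske iron-sulphur protein, which takes the first electron from ubiquinol. It measured 115, 92.2 and 101 FPKM in siNC and 134, 137 and 132 FPKM in siFOXD3. All siFOXD3 libraries were higher, with a log2 fold change of 0.39 ± 0.07 (SE, limma adjusted p = 0.000737). CYC1, the cytochrome c1 subunit that hands electrons to cytochrome c, measured 177, 155 and 149 FPKM in siNC and 202, 194 and 183 FPKM in siFOXD3. It rose by 0.27 ± 0.07 on the log2 scale (limma adjusted p = 0.00529), again without overlap, and by 0.16 with quantile normalization.

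UQCRH, the acidic hinge protein beside cytochrome c1, was the most abundant gene of the complex. Its level was 1029, 929 and 955 FPKM in siNC and 1166, 1202 and 1164 FPKM in siFOXD3. The groups were apart and the rise was 0.28 ± 0.04 (limma adjusted p = 0.000295). Of its transcript, 29.4% of 50-base stretches also occur in the near copy UQCRHL, listed at 0 to 1.15 FPKM, so the division of reads between them is uncertain. UQCR10, a small supernumerary subunit, measured 128, 113 and 127 FPKM in siNC and 157, 140 and 146 FPKM in siFOXD3. Every siFOXD3 library was higher, by 0.27 ± 0.06 (limma adjusted p = 0.00275), and by 0.16 with quantile normalization.

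UQCRC2, a core protein on the matrix side, measured 101, 95.5 and 103 FPKM in siNC and 89.1, 91.3 and 90.1 FPKM in siFOXD3. All siFOXD3 values were lower, and the log2 fold change was -0.14 ± 0.05 (limma adjusted p = 0.0198). UQCRC1, the other core protein, was not called (-0.05, 144 ± 5.10 FPKM in siNC and 139 ± 6.53 FPKM in siFOXD3, SD, n = 3). UQCRQ and UQCRB, small subunits known as ubiquinone-binding proteins, were called higher by 0.14 and 0.15 with limma adjusted p of 0.0456 and 0.0449. These calls were thin. That of UQCRC2 ended without siNC replicate 3 (limma adjusted p = 0.0640), siFOXD3 replicate 1 (0.0725) or siFOXD3 replicate 3 (0.0598). UQCRQ kept its call only without siNC replicate 1, with limma adjusted p of 0.0895 to 0.151 without any other library. UQCRB lost its call without siNC replicate 1 or 2 or siFOXD3 replicate 1 or 3 (limma adjusted p = 0.0750 to 0.185).

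**Figure D2:**
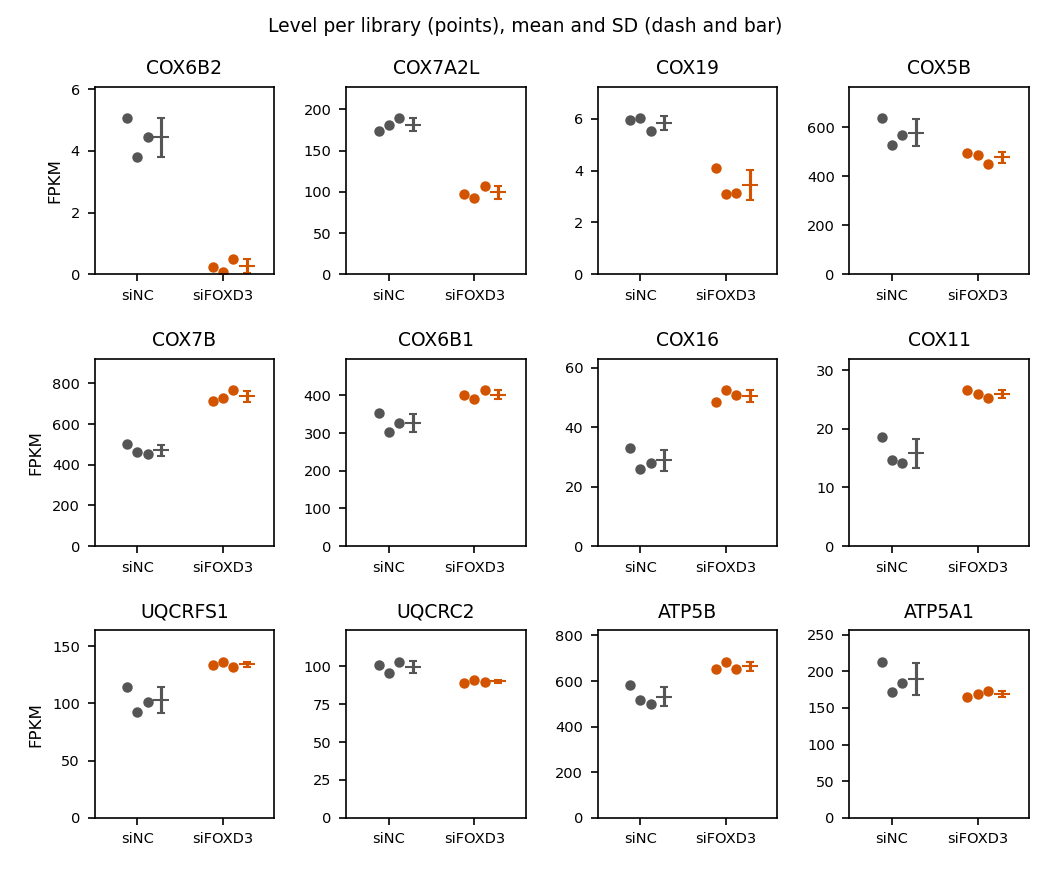
FPKM per library for 12 of the genes described, 1 panel per gene with siNC on the left and siFOXD3 on the right. Points are libraries, the dash is the mean and the bar the SD over 3 libraries. COX7B, COX16 and COX11 lie higher in every siFOXD3 library, COX7A2L, COX6B2 and COX19 lower, and the ATP5A1 groups overlap.

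Of the COX-named cytochrome oxidase subunit genes 45.5% were called, beside 65.9% of all genes tested and 75.7% of those at 100 FPKM or more. Their summed level did not differ beyond the spread between libraries. Of 12 listed, 11 were tested, 2 were called higher, 3 lower and 6 were not called, with a median log2 fold change of -0.06 (-0.11 with quantile normalization, which gave 5 lower). Their summed level was 4946, 4317 and 4432 FPKM in siNC and 4750, 4548 and 4559 FPKM in siFOXD3. The groups overlapped, and the ratio of means was 1.01 ± 0.0783 (SD, n = 3 per group). COX4I2, COX6A2, COX7B2 and COX8C, isoforms known from lung, muscle, testis or other tissues, were not listed. COX7A1, the heart and muscle isoform, was listed at 0 in all siNC libraries and at 0.176 to 0.330 FPKM in siFOXD3, below the filter.

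COX6B2 is the isoform of subunit VIb known from testis and from some tumours. Its level was 5.06, 3.79 and 4.47 FPKM in siNC and 0.225, 0.0815 and 0.505 FPKM in siFOXD3. The groups were far apart: mean levels were 16.4-fold lower in siFOXD3, and the log2 fold change was -2.10 ± 0.14 (limma adjusted p = 9.27e-07). On this scale 64 of all genes tested (0.51%) fell as far. COX6B2 passed the filter only through the siNC libraries, its siFOXD3 values rest on few fragments, and its log2 fold change was -3.78 with a pseudocount of 0.1 and -0.84 with one of 5. Of its transcript, 34.2% of 50-base stretches also occur in other genes, chiefly the locus AC020922.1. The neighbouring gene SUV420H2 averaged 24.4 ± 1.35 FPKM with siNC and 18.4 ± 0.822 FPKM with siFOXD3 (SD, n = 3).

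COX6B1, the widely expressed counterpart of COX6B2, went the other way. It measured 352, 302 and 326 FPKM in siNC and 401, 391 and 414 FPKM in siFOXD3. All siFOXD3 libraries were higher, by 0.30 ± 0.06 (limma adjusted p = 0.000889). At these levels COX6B2 was a small fraction of the subunit's messenger RNA in both groups.

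COX7B, a small subunit that is needed for assembly of the enzyme, rose furthest of the subunit genes. Its level was 502, 461 and 451 FPKM in siNC and 712, 728 and 768 FPKM in siFOXD3. The lowest siFOXD3 library was far above the highest siNC library. The mean was 1.56-fold higher, with a log2 fold change of 0.64 ± 0.05 (limma adjusted p = 2.26e-06), and 904 of all genes tested (7.2%) rose as far.

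COX5B, the zinc-binding subunit on the matrix side, fell. It measured 638, 529 and 570 FPKM in siNC and 494, 486 and 452 FPKM in siFOXD3. All siFOXD3 values were lower, and the log2 fold change was -0.27 ± 0.07 (limma adjusted p = 0.00396). COX7C, the most abundant gene of all 49, measured 1369, 1201 and 1280 FPKM in siNC and 1214, 1087 and 1100 FPKM in siFOXD3. Its groups overlapped, its log2 fold change was -0.18 ± 0.06 (limma adjusted p = 0.0188), and the call ended without siFOXD3 replicate 2 (0.0839) or siFOXD3 replicate 3 (0.0731).

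The other 6 subunit genes were not called. COX4I1, COX5A, COX6A1, COX6C, COX7A2 and COX8A had log2 fold changes from -0.13 (COX6A1) to 0.09 (COX8A). COX6A1 was the nearest to a call, with 675, 600 and 599 FPKM in siNC and 593, 557 and 565 FPKM in siFOXD3 and a limma adjusted p of 0.0569. Its groups did not overlap. It was called lower with quantile normalization (limma adjusted p = 0.000646), with a replicate block (0.0246) and without siNC replicate 2 (0.0414) or replicate 3 (0.0406), and 44% of the 50-base stretches of its transcript also occur elsewhere, mainly in the pseudogene COX6A1P2. Without siNC replicate 2, COX6C was called lower (-0.15, limma adjusted p = 0.0210), and without siNC replicate 1, COX8A was called higher (0.19, limma adjusted p = 0.00454). With quantile normalization COX4I1 and COX6C were also called lower (-0.17 and -0.19).

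The COX-named assembly factors of cytochrome oxidase went both ways, with larger steps than most of its subunits. Of 7 COX-named factors tested, 3 were called higher, 2 lower and 2 were not called. The share called (71.4%) was near the background of 65.9%. The median size of the change was 0.41 on the log2 scale, against 0.13 for the subunits and 0.33 over all genes tested. The difference between these medians was not tested.

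COX16 takes part in copper delivery to the second mitochondrially encoded subunit. Its level was 32.9, 25.9 and 27.9 FPKM in siNC and 48.5, 52.5 and 50.8 FPKM in siFOXD3. All siFOXD3 libraries were higher, with a 1.75-fold higher mean and a log2 fold change of 0.79 ± 0.08 (limma adjusted p = 1.23e-05). The neighbouring SYNJ2BP, which forms an annotated read-through with COX16, was level at 9.06 ± 0.333 and 9.28 ± 0.648 FPKM (limma adjusted p = 0.741), and 34.4% of 50-base stretches of COX16 are shared with that read-through, which was listed below 1 FPKM.

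COX11 inserts copper into the first mitochondrially encoded subunit. It measured 18.6, 14.6 and 14.2 FPKM in siNC and 26.6, 25.9 and 25.3 FPKM in siFOXD3. The groups were apart by 0.69 ± 0.09 (limma adjusted p = 8.68e-05). TOM1L1, which overlaps COX11 in the annotation, moved the other way, averaging 36.9 ± 3.97 FPKM with siNC and 17.5 ± 1.11 FPKM with siFOXD3 (a log2 difference of -1.03). No use of strand in counting is stated, so reads in the overlap cannot be assigned.

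COX19, another factor of copper handling, fell. Its level was 5.93, 6.02 and 5.52 FPKM in siNC and 4.12, 3.10 and 3.12 FPKM in siFOXD3. All siFOXD3 values were lower, with a log2 fold change of -0.63 ± 0.11 (limma adjusted p = 0.000433), or -0.36 with a pseudocount of 5 and -0.40 with quantile normalization. COX15, which converts haem o to the haem a of the enzyme, measured 11.2, 10.2 and 11.5 FPKM in siNC and 7.90, 8.03 and 8.04 FPKM in siFOXD3. It was lower in every siFOXD3 library, with a log2 fold change of -0.41 ± 0.07 (limma adjusted p = 0.000519), and shares 35.5% of its 50-base stretches with the locus AL133353.2.

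COX10, which makes haem o in the step before COX15, was called in the opposite direction. It measured 7.67, 6.43 and 7.47 FPKM in siNC and 8.55, 8.62 and 8.63 FPKM in siFOXD3, a log2 fold change of 0.23 ± 0.08 (limma adjusted p = 0.0268). The call ended without siNC replicate 2 (0.0956) or without siFOXD3 replicate 1 (0.0651), replicate 2 (0.0678) or replicate 3 (0.0682). COX17, the copper chaperone and the most abundant of these factors, measured 165, 122 and 128 FPKM in siNC and 167, 152 and 149 FPKM in siFOXD3. Its groups overlapped and it was not called (0.19, limma adjusted p = 0.121). COX17 was called higher without siNC replicate 1 (0.32, limma adjusted p = 0.000471), with median-of-ratios scaling (0.28, 0.0389) and with a replicate block (0.0299). COX18 was not called at about 2 FPKM. COX20 and COX14, listed under the older symbols FAM36A and C12orf62 and so outside the name rule, were both called higher: FAM36A went from 4.30 ± 0.630 to 8.33 ± 0.548 FPKM (log2 fold change 0.82) and C12orf62 from 72.7 ± 2.33 to 83.7 ± 4.05 FPKM (0.20).

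ATP synthase genes were called in both directions. Of 15 subunit genes with an ATP5 name, 7 (46.7%) were called higher, 2 (13.3%) lower and 6 were not called. Of all genes at 100 FPKM or more, 45.8% were called higher and 29.9% lower. The share called among the 15, 60%, was near or below the background. The 15 genes had a median log2 fold change of 0.10 (0.19 with median-of-ratios scaling and 0.00 with quantile normalization). Their summed level was 3957, 3548 and 3549 FPKM in siNC and 4107, 4192 and 4135 FPKM in siFOXD3. All siFOXD3 sums were higher, and the ratio of means was 1.12 ± 0.0730 (SD, n = 3 per group).

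In the F1 head, ATP5B, the catalytic beta subunit, measured 581, 516 and 500 FPKM in siNC and 653, 685 and 655 FPKM in siFOXD3. Every siFOXD3 library was higher, with a log2 fold change of 0.32 ± 0.06 (limma adjusted p = 0.000540) and 0.21 with quantile normalization. ATP5A1, the alpha subunit that alternates with beta in the same ring, measured 213, 171 and 183 FPKM in siNC and 165, 169 and 173 FPKM in siFOXD3. Its groups overlapped and its log2 fold change was -0.16 ± 0.07 (limma adjusted p = 0.0744). With quantile normalization, or without siNC replicate 2, ATP5A1 was called lower (-0.27 and -0.23, limma adjusted p = 0.00388 and 0.0152). ATP5E, the epsilon subunit and the most abundant gene of the complex, was not called, at 857, 779 and 799 FPKM in siNC and 842, 847 and 850 FPKM in siFOXD3. ATP5C1 (gamma) and ATP5D (delta) had log2 fold changes of 0.01 and 0.00.

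ATP5I, the e subunit of the membrane part, which takes part in the pairing of the enzyme, rose furthest. It measured 316, 289 and 260 FPKM in siNC and 406, 438 and 405 FPKM in siFOXD3. The groups did not overlap, and the log2 fold change was 0.53 ± 0.07 (limma adjusted p = 6.10e-05). ATP5J2, the f subunit, measured 352, 315 and 315 FPKM in siNC and 415, 431 and 411 FPKM in siFOXD3. Every siFOXD3 library was higher, by 0.36 ± 0.05 (limma adjusted p = 0.000149), and 16.7% of its 50-base stretches are shared with other genes, among them its read-through with PTCD1.

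In the stalk, ATP5F1 (b subunit) was called higher by 0.29 ± 0.05 (limma adjusted p = 0.000268), or 0.18 with quantile normalization. ATP5J (coupling factor 6) was called higher by 0.25 (limma adjusted p = 0.0344) with overlapping groups, and the call ended without siNC replicate 2 or 3 or siFOXD3 replicate 2 or 3 (0.105 to 0.131). ATP5O, the oligomycin sensitivity protein, was called lower, with a log2 fold change of -0.18 (limma adjusted p = 0.0460), or -0.09 with median-of-ratios scaling. Its call held only when siNC replicate 2 was the library left out (0.0755 to 0.128 without any other), and 69.0% of its 50-base stretches are shared with the locus AP000311.1. ATP5L and ATP5H (g and d subunits) were not called, at 0.04 and 0.10. Without siNC replicate 1, ATP5H and ATP5E were called higher (0.14 and 0.10, limma adjusted p = 0.00804 and 0.0145), and with median-of-ratios scaling ATP5E, ATP5H and ATP5L were (0.15, 0.19 and 0.13).

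The c subunit, which forms the rotating ring in the membrane, is encoded by 3 genes that give the same mature protein and differ in the leader that directs import. They did not move together. ATP5G1 measured 164, 131 and 127 FPKM in siNC and 206, 194 and 197 FPKM in siFOXD3. It rose without overlap, by 0.51 ± 0.08 on the log2 scale (limma adjusted p = 0.000375). ATP5G3 measured 165, 141 and 140 FPKM in siNC and 190, 198 and 205 FPKM in siFOXD3, and also rose in every library, by 0.41 ± 0.07 (limma adjusted p = 0.000288).

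ATP5G2, the most abundant of the c subunit genes in both groups, fell. It measured 280, 261 and 285 FPKM in siNC and 238, 223 and 232 FPKM in siFOXD3. All siFOXD3 values were lower, with a log2 fold change of -0.25 ± 0.05 (limma adjusted p = 0.00102), or -0.17 with median-of-ratios scaling. Its share of the summed c subunit FPKM went from 48.9% ± 2.79 to 36.8% ± 0.634, while ATP5G1 went from 24.8% ± 1.94 to 31.7% ± 0.716 and ATP5G3 from 26.3% ± 0.876 to 31.5% ± 1.28 (SD, n = 3). The sum was 565 ± 39.3 FPKM in siNC and 628 ± 11.7 FPKM in siFOXD3.

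**Figure D3:**
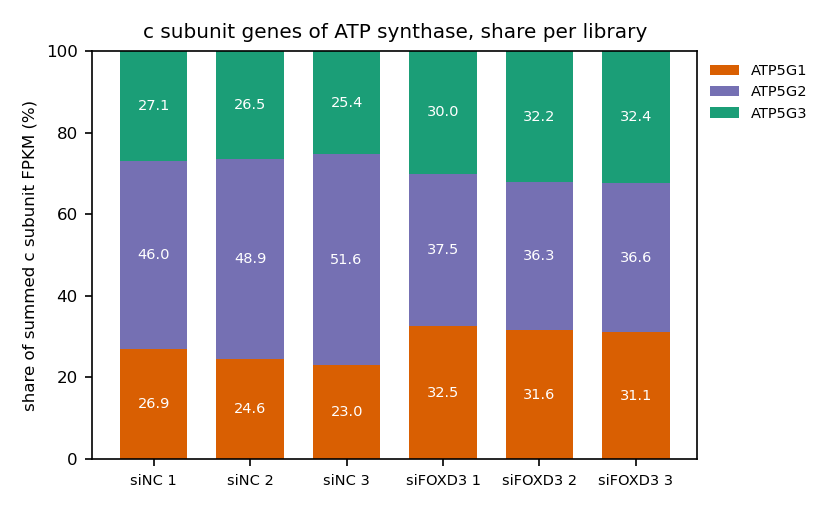
Share of the summed c subunit FPKM (%) held by ATP5G1, ATP5G2 and ATP5G3 in each of the 6 libraries. ATP5G2 holds 46.0% to 51.6% in siNC and 36.3% to 37.5% in siFOXD3, without overlap.

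Ratios of genes within a library do not depend on the scaling of the library, so 7 pairs were compared by their log2 ratio. Of these, 3 (ATP5B to ATP5A1, COX4NB to COX4I1 and UQCRFS1 to UQCRC2) were added after the values were seen and their tests are descriptions of that choice. With 3 libraries against 3 the exact permutation test cannot give a p under 0.1, which is 0.117 after Benjamini-Hochberg adjustment over the 7 pairs. The 3 added pairs all gave this smallest p and are counted in that adjustment. For the planned pairs at the smallest p, the adjusted value is therefore lower than it would be without them. The log2 ratio of ATP5G1 to ATP5G2 was -0.98 ± 0.20 in siNC and -0.21 ± 0.02 in siFOXD3, a difference of 0.76 ± 0.20 (SD) that reached this smallest p. The ratio of ATP5G2 to ATP5G3 differed by -0.67 ± 0.16, also at the smallest p. The ratio of ATP5G1 to ATP5G3 differed by 0.10 ± 0.11, and its groups overlapped (exact permutation p = 0.3, two-sided). The ratio of ATP5B to ATP5A1 was higher in siFOXD3 by 0.48 ± 0.10 and that of UQCRFS1 to UQCRC2 by 0.54 ± 0.13, both without overlap.

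COX7A2L, also called SCAF1 or COX7RP, is related to the COX7A subunits and joins complex III to cytochrome oxidase in supercomplexes. Its level was 174, 181 and 189 FPKM in siNC and 97.7, 92.8 and 108 FPKM in siFOXD3. The highest siFOXD3 library was far below the lowest siNC library. The mean was 1.82-fold lower, with a log2 fold change of -0.86 ± 0.06 (limma adjusted p = 1.07e-06), and 1097 of all genes tested (8.74%) fell as far. None of its 50-base stretches occurs in another annotated gene.

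COX7A2, the COX7A isoform that sits in the oxidase itself, did not share the fall. It measured 214, 196 and 200 FPKM in siNC and 225, 195 and 211 FPKM in siFOXD3, overlapping groups with a log2 fold change of 0.05 ± 0.06. The log2 ratio of COX7A2 to COX7A2L was 0.17 ± 0.12 in siNC and 1.08 ± 0.12 in siFOXD3. The difference of 0.92 ± 0.17 was the largest of the 7 pairs, at the smallest p the exact test allows.

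The remaining names are not respiratory subunits. COX4NB, now EMC8, belongs to the complex that inserts proteins into the endoplasmic reticulum membrane, and starts 150 bases from COX4I1 on the other strand, across the stretch printed above. It measured 8.09, 6.15 and 5.73 FPKM in siNC and 10.7, 10.8 and 9.03 FPKM in siFOXD3. All siFOXD3 values were higher, with a log2 fold change of 0.55 ± 0.12 (limma adjusted p = 0.00187). COX4I1, on the other side of the shared stretch, measured 173, 147 and 142 FPKM in siNC and 147, 150 and 146 FPKM in siFOXD3, overlapping and not called (-0.06). The log2 ratio of COX4NB to COX4I1 was higher by 0.68 ± 0.17 in siFOXD3.

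ATP5S, now DMAC2L, measured 12.2, 11 and 10.1 FPKM in siNC and 9.03, 9.28 and 9.48 FPKM in siFOXD3 (log2 fold change -0.24, limma adjusted p = 0.0220). ATP5SL, now DMAC2, a factor of complex I assembly, measured 30.1, 30.3 and 29.5 FPKM in siNC and 27.7, 26.7 and 25.5 FPKM in siFOXD3 (-0.16, limma adjusted p = 0.0218). Both were lower without overlap, but both calls ended with median-of-ratios scaling (0.113 and 0.234). Without single libraries the call of ATP5S ended for siNC replicate 1 (0.0551) and siFOXD3 replicates 1 and 2 (0.0707 and 0.0556), and that of ATP5SL for siNC replicate 2 (0.0540) and siFOXD3 replicates 2 and 3 (0.0557 and 0.0954). UQCRHL and the read-through ATP5J2-PTCD1 stayed below the filter, at 0 to 1.15 and 0.00120 to 0.841 FPKM.

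**Figure D4:**
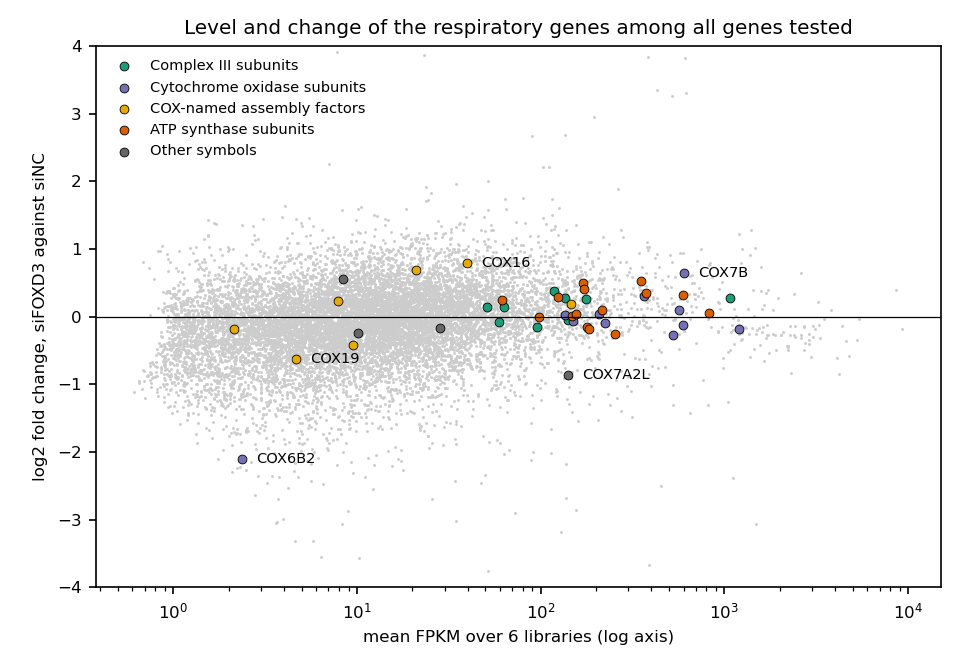
Mean FPKM over 6 libraries (log axis) against log2 fold change of siFOXD3 against siNC, with all genes tested in grey and the respiratory genes coloured by role. 11 genes outside a log2 fold change of 4 in either direction are not drawn, and 30 of the 46 respiratory genes lie at 100 FPKM or more, 26 of them within 0.5 of zero.

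Promoters of these genes were searched for the letters of known sites in the 250 bases before and 50 bases after the start, on both strands. RefSeq promoters were matched for 37 of the 49 genes; ATP5B, ATP5D, ATP5G3, ATP5J2, ATP5J2-PTCD1, ATP5S, COX11, COX6C, COX7A1, CYC1, UQCRB and UQCRHL had no entry. No motif searched is contained in another. The NRF1 core CGCATGCG was in 7 of the 37 (18.9%), against 2.88% of 15843 promoters and 3.98% of the 9688 whose genes were tested. It occurred in ATP5C1, ATP5G2, ATP5I, ATP5J, COX17, COX18 and COX6A1, of which 2 were called higher, 1 lower and 4 not at all.

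The ETS family site CCGGAAG, bound by the GABP factor among others, was in 16 of the 37 (43.2%), against 14.2% of all promoters and 20.2% of those tested. It was held by 7 of 13 genes called higher, 2 of 10 called lower and 7 of 14 not called. The YY1 site AAGATGGC was in 5 (13.5%, against 3.91% of all promoters and 5.57% of those tested), namely ATP5F1, ATP5J, ATP5O, COX10 and UQCRC1. The GC box GGGCGG was in 22 (59.5%), near the share of all promoters (58.5%) and below that of tested genes (71.4%). The forkhead core TGTTTAC was in 0 of the 37, against 2.61% of all promoters and 2.23% of those tested. With shares this low, 0 of 37 is near the background. These are matches of letters in a fixed window, with no test.

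Genes that work beside the 3 complexes were described from lists of their known members. In cytochrome c itself, the carrier between complex III and cytochrome oxidase, CYCS measured 31.9, 29.4 and 28.0 FPKM in siNC and 56.4, 60.0 and 56.9 FPKM in siFOXD3. It rose in every library, by 0.94 ± 0.06 (limma adjusted p = 5.96e-07), a larger change than that of any gene called higher among the 46. HCCS, which attaches haem to cytochrome c, was called higher by 0.18 ± 0.06 (limma adjusted p = 0.0184), a call that ended without siNC replicate 2 or 3 or siFOXD3 replicate 1 or 3 (0.0539 to 0.0576).

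Of 6 complex III assembly factors, limma called 3 higher and 0 lower (1 lower at an unadjusted p under 0.05). The share called (50%) was below the background of 65.9%, and 27.2% of all genes tested were called higher. C11orf83 (UQCC3), which stabilises newly made cytochrome b, went from 19 ± 1.71 to 37.9 ± 1.26 FPKM (SD, n = 3). BCS1L, which inserts the Rieske protein encoded by UQCRFS1, went from 12.4 ± 0.751 to 21.2 ± 1.48 FPKM (log2 fold change 0.72). LYRM7, a chaperone of the same protein, was called higher by 0.27 (limma adjusted p = 0.0377). That call held only when siNC replicate 2 was the library left out (0.0573 to 0.127 without any other) and ended with a replicate block (0.0607).

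Of 21 further cytochrome oxidase genes, mostly assembly and messenger factors, 10 were called higher and 4 lower. The share called (66.7%) was at the background of 65.9%. SLIRP, which with LRPPRC stabilises mitochondrial messenger RNA, went from 502 ± 66.6 to 1000 ± 29.9 FPKM, SELRC1 (COA7) from 10.9 ± 1.1 to 22.4 ± 1.85 FPKM and CHCHD8 (COA4) from 55.2 ± 3.89 to 96.5 ± 3.0 FPKM (SD, n = 3). Of 7 further ATP synthase genes, most of them accessory factors, limma called 4 higher and 0 lower (0 at an unadjusted p under 0.05), or 2 higher with no filter. The share called was 57.1%, all higher, beside 65.9% called and 27.2% higher over all genes tested. The genes called higher were led by the assembly factor TMEM70 (7.29 ± 1.44 to 11.4 ± 0.726 FPKM), C14orf2 (0.43 on the log2 scale) and C7orf55 (0.25). The call of C7orf55 held only when siNC replicate 2 was the library left out (limma adjusted p = 0.0559 to 0.138 without any other).

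Subunit genes of the upstream enzymes were called in both directions. Of 37 complex I subunit genes, 17 (45.9%) were called higher and 8 (21.6%) lower, with a median log2 fold change of 0.15, and the share called (67.6%) was at the background; NDUFB9, NDUFS6 and NDUFB2 rose by 0.62, 0.58 and 0.57. Of 8 complex II subunit and assembly genes, 4 were higher and 2 lower. The share called was 75%, beside 65.9% of all genes tested. SDHA, called higher by 0.16 (limma adjusted p = 0.0212), kept its call only without siNC replicate 1 (0.0511 to 0.0725 without any other). SDHAF1, called lower by 0.30 on the log2 scale, lost its call without siNC replicate 1 or 2 or siFOXD3 replicate 1 or 3 (limma adjusted p = 0.0582 to 0.0930). The iron-sulphur subunit SDHB rose by 0.55 and the assembly factor ACN9 (SDHAF3) by 0.57, while C6orf57 (SDHAF4) fell by 0.91 on the log2 scale, from 19.8 ± 1.25 to 10.1 ± 1.38 FPKM.

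Haem, a cofactor of complex III, cytochrome oxidase and cytochrome c, is made by 8 enzymes. Of these, limma called 5 lower and 0 higher (1 higher at an unadjusted p under 0.05). The share called (62.5%) was near the background of 65.9%, and 38.7% of all genes tested were called lower. PPOX went from 8.47 ± 0.502 to 3.13 ± 1.03 FPKM (log2 fold change -1.23), ALAS1, the first and rate-limiting enzyme, from 48.1 ± 1.68 to 27.7 ± 0.526 FPKM (-0.77) and ALAD from 12.6 ± 1.27 to 10 ± 0.453 FPKM (-0.30). With median-of-ratios scaling the counts were 1 higher and 3 lower.

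Of 14 genes tested of mitochondrial transcription and its nuclear regulators, 10 (71.4%) were called higher and 2 (14.3%) lower. Over all genes tested these shares were 27.2% and 38.7%. C17orf42 (TEFM), called higher by 0.31 (limma adjusted p = 0.0498), lost its call without siNC replicate 1 or 2 or siFOXD3 replicate 2 or 3 (0.0701 to 0.202). TFAM, which packages and transcribes mitochondrial DNA, went from 27.5 ± 2.98 to 46.8 ± 1.80 FPKM (0.75), GABPB1, a subunit of the GABP factor, rose by 0.67, and TFB1M, a ribosomal RNA methylase, fell by 0.80 on the log2 scale. The regulators whose sites were searched above gave 5.07 ± 0.540 and 6.61 ± 0.0894 FPKM for NRF1, 29.2 ± 1.26 and 42.3 ± 1.30 FPKM for YY1 and 9.08 ± 1.49 and 8.49 ± 0.334 FPKM for GABPA, the DNA-binding subunit of GABP, which was not called. These 3 were named after their values were seen.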

How the data were processed

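Messenger RNA of 3 siNC and 3 siFOXD3 libraries of A549 cells was analysed, with groups and replicate numbers from the titles. Each deposited table lists gene symbols with FPKM, the unit named per the file headers. TopHat, Cufflinks and the build hg19 were used, per the submitters' processing notes; versions, annotation, read length and use of strand: not given in the sources used here. Per the labels' protocols, libraries were made with an Illumina TruSeq kit.

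Rows of a symbol were summed (333 symbols, none of the 49) and an absent symbol was set to 0. Genes with at least 1 FPKM in at least 3 libraries (12555) were tested with limma 3.58.1 in R 4.3.3 on log2(FPKM + 1), trend and robust, two-sided, with Benjamini-Hochberg adjustment over all of them and a call at an adjusted p under 0.05. Fold changes on this scale understate the change of low genes. Python 3.11.15, pandas 2.3.3, numpy 2.4.6, scipy 1.17.1 and matplotlib 3.10.9 did the rest. The steps were tested on simulated data. Depth was estimated from steps between low values with an assumed fragment of 150 bases. Stretches of 50 bases shared between genes come from GENCODE 29 and promoters from RefSeq (GRCh38.p14); these builds differ from hg19, so coordinates are given for RefSeq sequences only.

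Values in every library are given for up to 4 called genes of each role with the largest change, its 2 most abundant genes and the genes of the pairs; of other lists, up to 3 called genes with the largest change are named. ATP5A1, ATP5F1, COX10, COX6A1, UQCRC2, SUV420H2, SYNJ2BP, TOM1L1, PTPRC, NRF1, YY1, GABPA and the near-copy genes were added after the values were seen. The genes and lists were chosen with earlier results of these data known. Alternatives were a pseudocount of 0.1 or 5, no filter, median-of-ratios scaling, quantile normalization, no trend or robust step, the largest row of a symbol, a replicate block, and leaving out each library.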

Additional observations from a re-analysis of the deposited data

How the results depend on the processing

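Of the 30 called genes, 21 (15 higher, 6 lower) kept their call in all 14 alternatives, and no called gene changed direction. The other 9 (ATP5J, ATP5O, ATP5S, ATP5SL, COX10, COX7C, UQCRB, UQCRC2 and UQCRQ) lost it in at least 1. Of the 16 genes not called, 12 gained a call in at least 1 alternative, 7 of them with a library left out (ATP5A1, ATP5E, ATP5H, COX17, COX6A1, COX6C and COX8A); the others were ATP5L, COX18, COX4I1, UQCR11 and UQCRC1. Genes called lower were 6 of 46 with median-of-ratios scaling and 7 to 13 when 1 library was left out, lowest without siFOXD3 replicate 2 or 3; those called higher were 15 to 22. The ratio of summed FPKM was 1.24 for complex III with median-of-ratios scaling and 1.05 for ATP synthase with quantile normalization. For ATP synthase, 1 gene was lower with no filter, with median-of-ratios scaling, without the trend and robust steps and with the replicate block, and 1 to 3 with a library left out. For complex III, limma called 0 lower with median-of-ratios scaling and 0 without the trend and robust steps (0 and 1 at an unadjusted p under 0.05), 3 with quantile normalization and 0 to 1 with a library left out. For cytochrome oxidase subunits, 5 were lower with quantile normalization and 2 to 5 with a library left out. For the names of other roles, 1 was lower with median-of-ratios scaling and 1 to 3 with a library left out. The cause was not tested. The differences in the 7 log2 ratios kept their sign with a pseudocount of 1, with the largest row of a symbol and without any 1 library. The other alternatives, quantile normalization among them, were not run for these ratios.

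Same-numbered libraries of the 2 groups correlated in their deviations from the group means at 0.06, 0.16 and 0.11. As 1 of these is under 0.1, the numbers were not taken to pair the libraries, though each library correlated best with its own number. With the replicate block, 18 of the 46 genes were called higher and 11 lower, and 3354 and 4818 of all genes tested. The files hold no counts, and the estimated depth limits what can be said of genes below 1 FPKM, such as COX6B2 in siFOXD3.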
